A study of Homo sapiens with 16 samples.

Results

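The 10 genes described here encode the cyclin-dependent kinase engine that carries a cell through S phase and mitosis. They are the E-type cyclins CCNE1 and CCNE2, the A-type cyclin CCNA2, the B-type cyclins CCNB1 and CCNB2, the kinases CDK1 and CDK2, and the phosphatases CDC25A, CDC25B and CDC25C. They were taken by gene symbol from a table of 78986 genes and other features, and each symbol matched 1 row. RNA of T47D cells, a long-established line of human luminal breast cancer, was sequenced in 16 libraries, 4 in each of 4 groups. FAH knockout (KO) cells given 500 nM abemaciclib for 3 days, control-guide cells given the same treatment, KO cells given vehicle (DMSO in the titles) and control-guide cells given vehicle made up the groups. All groups grew in high-glucose DMEM with serum. FAH encodes fumarylacetoacetate hydrolase, the last enzyme of tyrosine breakdown, and abemaciclib inhibits the kinases CDK4 and CDK6. The design asks how the drug and the loss of FAH, alone and together, change RNA levels. The sources used here give no guide sequence and do not say if the knockout is clonal. The labels do not tell whether the libraries of a group were grown as separate cultures. A p-value therefore sets a group difference against the spread of these libraries only, and that spread may be technical.

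As background, a CDK is active only when bound to a cyclin, and each cyclin is made and destroyed in its own part of the cell cycle. Cyclin E with CDK2 starts DNA replication, cyclin A with CDK2 and then CDK1 carries cells through S phase and G2, and cyclin B with CDK1 drives mitosis. The kinases WEE1 and PKMYT1 hold CDK1 and CDK2 inactive by phosphorylation, and the CDC25 phosphatases remove those phosphates. CDK4 and CDK6 act upstream by phosphorylating RB, which otherwise restrains the E2F factors that transcribe many S-phase genes. Many genes of G2 and mitosis are repressed outside those phases through a promoter element known as the CHR, and many also hold CCAAT boxes, which the activator NF-Y binds.

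Depth was 9915776 to 11963093 assigned reads per library, worked out by taking the most frequent nonzero value of each library as 1 read. Levels are counts per 1000000 assigned reads (CPM). Differences are on the log2(CPM + 1) scale, from a limma fit over 16218 genes with Benjamini-Hochberg adjustment, and a gene passed the test at an adjusted p under 0.05. Adding 1 CPM understates the change of genes with low values. The targeted gene had 5.03, 5.67, 6.79 and 5.54 CPM of FAH RNA in KO cells under abemaciclib, against 23.4, 24.1, 25.8 and 22.6 CPM in control cells under abemaciclib. FAH RNA was at 6.77, 6.53, 6.27 and 7.02 CPM in KO cells under vehicle, against 25.1, 27.5, 25.2 and 28.2 CPM in control cells under vehicle. It was therefore lower in every KO library but not absent, with a log2 difference of -1.89 under abemaciclib (limma adjusted p = 3.37e-19) and -1.84 under vehicle (limma adjusted p = 4.55e-19). The summed level of 10 luminal epithelial markers was 15746 to 16015 CPM in KO cells and 11237 to 11682 CPM in control cells under abemaciclib, and 13088 to 13485 CPM in KO cells and 9419 to 9589 CPM in control cells under vehicle. The sum moved with both knockout and drug, and it is mostly made of keratins: KRT8 averaged 6323 and 3363 CPM in KO and control cells under abemaciclib, and 5048 and 2700 CPM under vehicle. The 10 markers did not move one way, since 5 were higher and 5 lower in KO than in control cells under vehicle, and 4 higher and 5 lower under abemaciclib. Under vehicle KRT8 (0.90), KRT18 (0.85), CDH1, KRT19 and EPCAM were the higher ones, and TFF1 (-0.69), ESR1 (-0.35), GATA3 (-0.31), PGR and FOXA1 the lower ones. Between drug and vehicle 5 were higher and 1 lower in each genotype. The 5 mesenchymal markers summed to 61.0 to 65.1 CPM in KO cells and 53.1 to 66.6 CPM in control cells under abemaciclib, and to 51.8 to 61.4 CPM in KO cells and 45.2 to 47.4 CPM in control cells under vehicle, with COL1A2, DCN and PDGFRB below 1 CPM throughout. The 5 leukocyte markers summed to 2.92 to 4.60 CPM in KO cells and 3.71 to 4.08 CPM in control cells under abemaciclib, and to 3.85 to 4.92 CPM in KO cells and 4.54 to 6.13 CPM in control cells under vehicle, with CD3E and CD14 below 1 CPM throughout. The part of these markers in the results was not tested. The 3 endothelial markers summed to at most 0.179 CPM in any library, and 3 of 4 basal markers stayed below 1 CPM.

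In the GENCODE 29 annotation of GRCh38, CDC25A lies at chr3:48157146-48188402 and CCNA2 at chr4:121816444-121823933, both on the minus strand. CCNB1 lies at chr5:69167010-69178245 on the plus strand, and CDC25C at chr5:138285265-138338355 on the minus strand. CDK1 at chr10:60778331-60794852, CDK2 at chr12:55966769-55972784, CCNB2 at chr15:59105078-59125045, CCNE1 at chr19:29811898-29824308 and CDC25B at chr20:3786772-3806121 are on the plus strand.

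The stretches below stand just upstream of RefSeq start sites (GRCh38.p14) and are shown because the elements they hold are ones through which cell-cycle genes are known to be controlled. Each is 30 bases, 5′ to 3′ on the strand of the gene, chosen within the 100 bases before a start site to hold the most matches and then to lie nearest the start. Capitals mark matches on either strand. The CHR was searched as TTTGAA, and the CCAAT box as CCAAT. E2F matches were the letters TTCCCGC, alternatively the letters TTCGCGC, alternatively the letters TTGCCGC, alternatively the letters TTGGCGC.
CDC25A, chr3:48188448-48188477, minus strand: tgATTGGtggattccgtTTGGCGCCAActa
CCNA2, chr4:121823922-121823951, minus strand: gcgagcgctttcATTGGtccatttcaatag
CCNB1, chr5:69167083-69167112, plus strand: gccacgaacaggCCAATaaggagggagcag
CCNB2, chr15:59105105-59105134, plus strand: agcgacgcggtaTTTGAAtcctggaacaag
CDK1, chr10:60778408-60778437, plus strand: cTTTGAAagtctacgggctacccgATTGGt
CDC25B, chr20:3796225-3796254, plus strand: acccgctaccccATTGGtggcgtccggcgg
CDC25C, chr5:138331878-138331907, minus strand: ctgggcgcgcgcgcggagATTGGctgacgc

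A promoter window, from 250 bases before to 50 bases after a start site, was matched for 8 of the 10 members. No window was matched for CDK2. Chromosome 8, which holds CCNE2, was left out of the search, so CCNE2 was not searched. The CCAAT box stood in a window of 7 of these 8 genes (all but CCNE1), against 39.7% of 27305 genes. The CHR in the spelling searched was found for 3 of 8 (CCNB2, CDK1 and CDC25C), against 18.2% of genes. Other spellings of the CHR were not searched. An E2F match was found for 5 of 8 (CDC25A, CCNB1, CDK1, CDC25B and CDC25C), against 15.3% of genes. In the CDC25A stretch the 2 E2F matches overlap, since the letters read as a match on both strands. Genes with several start sites have more windows to match in: CDC25B and CDC25C have 4 windows each and CDK1 has 2. Of the 7 stretches, 6 overlap the gene's span in GENCODE 29, which starts some transcripts further upstream, and that of CDC25A does not. These are matches of letters, and binding was not measured.

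Abemaciclib lowered all 10 members in both genotypes. In KO cells 10 of 10 were lower and 0 higher, where 27.4% of all tested genes were lower and 11% higher. In control cells 10 of 10 were also lower and 0 higher, where 31.1% of tested genes were lower and 19.6% higher. The median log2 difference over the members was -2.10 in KO cells, against -0.07 over all tested genes, and -2.04 in control cells, against -0.05 over all tested genes. The groups did not overlap for 10 members in KO cells and for 9 in control cells, where CCNE1 was the exception; of all tested genes 25.5% in KO cells and 26.7% in control cells had every drug library below every vehicle library. In bulk RNA, fewer cells in S phase, G2 or mitosis and less RNA per cell cannot be told apart. With libraries rescaled by the median ratio over genes, 46.9% of all genes that passed were lower in KO cells, in place of 71.4%, and 48.9% in control cells, in place of 61.3%. All 10 members remained lower in both genotypes under that scaling, except that CCNE1 in control cells no longer passed.

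**Figure D1:**
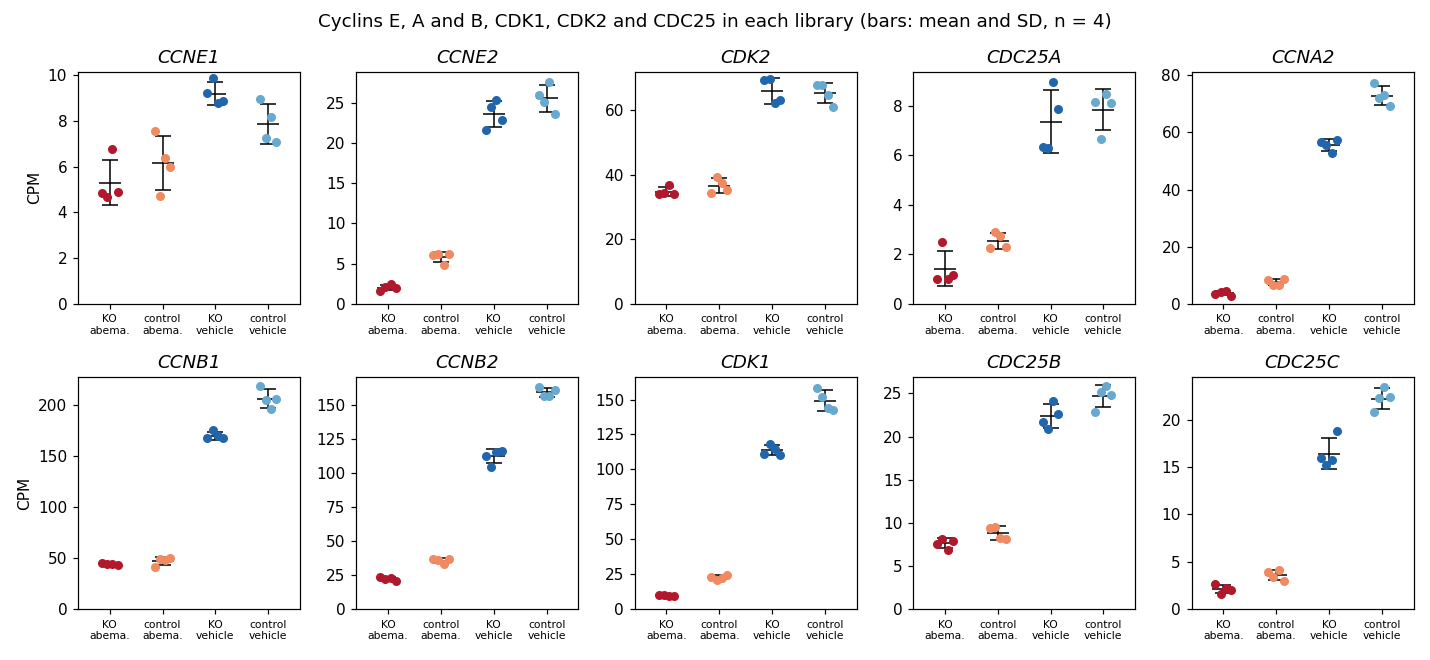
Level of each of the 10 genes in CPM (vertical axis, starting at 0) in the 4 libraries of each group; points are libraries, and bars give the mean and SD (n = 4). The vehicle means stand above the abemaciclib means in every panel, and CCNE1 is the panel in which abemaciclib and vehicle libraries of control cells overlap.

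The G1/S cyclins responded unequally. CCNE2 had 1.65, 2.04, 2.46 and 1.91 CPM in KO cells under abemaciclib, against 21.6, 24.4, 25.3 and 22.8 CPM in KO cells under vehicle. Control cells had 6.07, 6.22, 4.84 and 6.17 CPM under abemaciclib, against 25.9, 25.1, 27.5 and 23.6 CPM under vehicle. The drug thus left 8.54% of the mean vehicle level in KO cells and 22.8% in control cells, and drug and vehicle libraries were far apart in both genotypes. The log2 difference was -3.03 ± 0.09 (SE) in KO cells (limma adjusted p = 3.19e-24) and -1.96 ± 0.09 in control cells (limma adjusted p = 7.32e-19). The values in treated KO cells rest on 18 to 29 reads per library.

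CCNE1 had 4.85, 4.69, 6.79 and 4.90 CPM in KO cells under abemaciclib, against 9.24, 9.88, 8.78 and 8.87 CPM in KO cells under vehicle. The control-guide libraries held 7.57, 4.73, 6.37 and 5.97 CPM under abemaciclib, against 8.98, 7.24, 8.16 and 7.07 CPM under vehicle. In KO cells every drug-treated library was below every vehicle library. In control cells the library with 7.57 CPM under the drug, control abemaciclib replicate 1, exceeded 2 vehicle libraries. The log2 difference was -0.70 ± 0.11 in KO cells (limma adjusted p = 4.53e-06) and -0.32 ± 0.11 in control cells (limma adjusted p = 0.0178). In control cells the call did not hold in 5 of 26 alternatives, with adjusted p up to 0.119, among them leaving out control vehicle replicate 1 (-0.26) or control abemaciclib replicate 2 (-0.21).

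CDK2, the kinase partner of cyclins E and A, had 34.0, 34.4, 36.8 and 34.0 CPM in KO cells under abemaciclib, against 69.4, 69.6, 62.1 and 63.0 CPM in KO cells under vehicle. Levels in control cells were 34.3, 39.4, 37.5 and 35.2 CPM under abemaciclib, against 67.8, 67.7, 64.6 and 61.1 CPM under vehicle. It kept 52.7% of its mean vehicle level in KO cells and 56.1% in control cells, without overlap between treatments in either genotype. The log2 difference was -0.90 ± 0.05 in KO cells (limma adjusted p = 4.25e-16) and -0.82 ± 0.05 in control cells (limma adjusted p = 4.36e-15). Its reads were whole numbers in 13 of 16 libraries, and a fraction can arise when a read is shared between genes.

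CCNA2, the cyclin of S phase and G2, had 3.57, 3.98, 4.50 and 2.72 CPM in KO cells under abemaciclib, against 56.6, 55.6, 52.7 and 57.3 CPM in KO cells under vehicle. Values in control cells were 8.41, 6.57, 6.63 and 8.67 CPM under abemaciclib, against 77.5, 71.9, 73.1 and 69.2 CPM under vehicle. With 1 CPM added it had the largest log2 difference of the 10 members in each genotype, -3.60 ± 0.09 in KO cells (limma adjusted p = 1.12e-26) and -3.12 ± 0.09 in control cells (limma adjusted p = 7.83e-25). The drug left 6.65% of the mean vehicle level in KO cells and 10.4% in control cells. With 5 CPM added, its difference in KO cells was -2.80 and that of CDK1 was larger, at -2.99.

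CDK1, the mitotic kinase, had 10.2, 10.4, 9.68 and 9.53 CPM in KO cells under abemaciclib, against 111, 118, 115 and 111 CPM in KO cells under vehicle. Control cells had 23.2, 21.0, 21.9 and 24.4 CPM under abemaciclib, against 159, 152, 144 and 143 CPM under vehicle. The 4 groups were fully separate, and the drug left 8.77% of the mean vehicle level in KO cells and 15.2% in control cells. The log2 difference was -3.39 ± 0.05 in KO cells (limma adjusted p = 5.39e-33) and -2.67 ± 0.05 in control cells (limma adjusted p = 8.45e-30).

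CCNB1, whose product activates CDK1 for entry into mitosis, had 45.1, 43.8, 44.7 and 43.3 CPM in KO cells under abemaciclib, against 168, 176, 170.2 and 168 CPM in KO cells under vehicle. The control-guide libraries held 41.7, 49.0, 48.3 and 50.2 CPM under abemaciclib, against 219, 205, 197 and 206 CPM under vehicle. Treatments did not overlap, and the drug left 26.0% of the mean vehicle level in KO cells and 22.9% in control cells. The log2 difference was -1.92 ± 0.05 in KO cells (limma adjusted p = 4.17e-27) and -2.11 ± 0.05 in control cells (limma adjusted p = 3.10e-28).

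CCNB2, the other mitotic cyclin, had 23.7, 22.0, 23.1 and 20.8 CPM in KO cells under abemaciclib, against 112, 105, 115 and 116 CPM in KO cells under vehicle. Levels in control cells were 36.6, 35.7, 32.9 and 36.4 CPM under abemaciclib, against 163, 157, 157 and 161 CPM under vehicle. All 4 groups were separate. The log2 difference was -2.27 ± 0.05 in KO cells (limma adjusted p = 9.30e-29) and -2.14 ± 0.05 in control cells (limma adjusted p = 5.21e-28).

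Among the phosphatases, CDC25C, which acts at mitotic entry, ranged from 1.59 to 2.65 CPM (median 2.1) in KO cells under abemaciclib, against 15.2 to 18.8 CPM (median 15.9) in KO cells under vehicle. In control cells the range was 2.99 to 4.16 CPM (median 3.63) under abemaciclib, against 20.8 to 23.4 CPM (median 22.3) under vehicle. Its log2 difference was -2.49 ± 0.10 in KO cells (limma adjusted p = 2.64e-20) and -2.34 ± 0.10 in control cells (limma adjusted p = 1.35e-19). Drug and vehicle libraries were well apart in both genotypes.

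CDC25A, which acts on CDK2 at S-phase entry, had 1.01, 2.48, 1.02 and 1.18 CPM in KO cells under abemaciclib, against 6.35, 6.28, 8.96 and 7.85 CPM in KO cells under vehicle. In control cells the range was 2.24 to 2.89 CPM under abemaciclib, against 6.65 to 8.47 CPM under vehicle. These are the lowest read numbers of the set, with 11 to 28 reads per library in treated KO cells. Its log2 difference was -1.82 ± 0.14 in KO cells (limma adjusted p = 7.42e-13) and -1.32 ± 0.14 in control cells (limma adjusted p = 8.41e-10).

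CDC25B, which activates CDK1 at the G2 to M transition, ranged from 6.79 to 8.15 CPM in KO cells under abemaciclib, against 20.8 to 24.1 CPM in KO cells under vehicle. In control cells the range was 8.09 to 9.55 CPM under abemaciclib, against 22.9 to 25.8 CPM under vehicle. Its log2 difference was -1.44 ± 0.08 in KO cells (limma adjusted p = 2.57e-17) and -1.39 ± 0.08 in control cells (limma adjusted p = 5.52e-17).

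**Figure D2:**
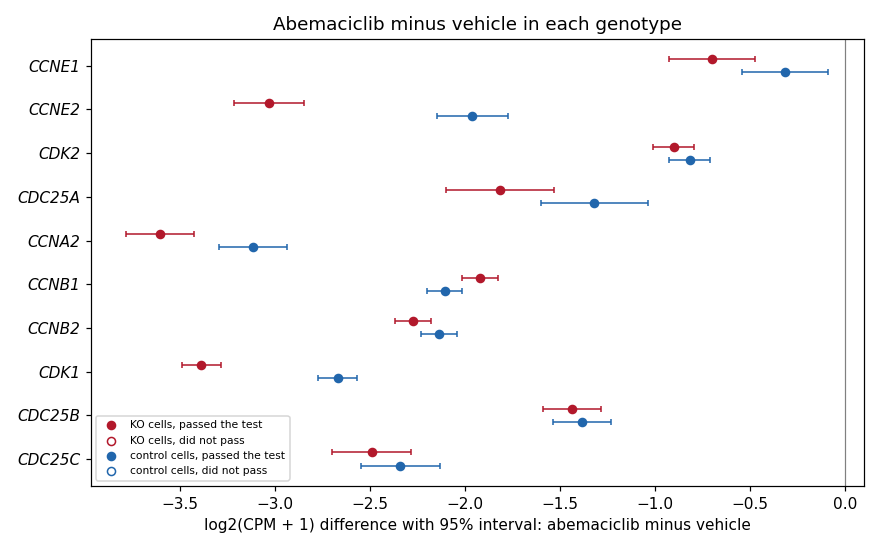
Difference between abemaciclib and vehicle on the log2(CPM + 1) scale (horizontal axis) for each gene, in KO cells (red) and control cells (blue); lines are 95% intervals of the fit and filled points passed the test. All 20 points lie below 0, from -3.60 for CCNA2 in KO cells to -0.32 for CCNE1 in control cells.

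The interaction asks whether the drug changed a gene differently in KO and control cells. It is the drug difference in KO cells minus that in control cells, and 3 of 10 members were more strongly lowered in KO cells while 0 passed in the other direction; of all tested genes 6.16% passed as lower and 4.68% as higher. CCNE2 had an interaction of -1.07 ± 0.13 (limma adjusted p = 3.53e-07), CDK1 of -0.72 ± 0.07 (limma adjusted p = 1.21e-08) and CCNA2 of -0.49 ± 0.13 (limma adjusted p = 0.00843). The CCNE2 and CDK1 calls held in all 25 alternatives, although the CCNE2 interaction was -0.53 (adjusted p = 8.91e-05) when 5 CPM were added before the logarithm. The CCNA2 call did not hold in 3 of 25, with the interaction at -0.17 (adjusted p = 0.261) with 5 CPM added. Thus 1 of the E-type cyclins, the S-phase cyclin CCNA2 and the mitotic kinase passed this test, whereas CCNE1, CDK2, both B-type cyclins and all 3 phosphatases did not.

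For CCNB1 the interaction had the opposite sign, at 0.19 ± 0.06 (95% interval 0.05 to 0.32, limma adjusted p = 0.0591). It passed in 5 of 25 alternatives, among them without control vehicle replicate 3 (0.21), control abemaciclib replicate 2 (0.20) or control abemaciclib replicate 4 (0.22). CDC25A had -0.50 ± 0.20 (limma adjusted p = 0.105), and -0.68 (adjusted p = 0.00714) without the KO abemaciclib library that held 2.48 CPM, replicate 2. CCNE1 had -0.39 ± 0.16 (limma adjusted p = 0.120), and passed without control abemaciclib replicate 2 (-0.49, adjusted p = 0.0392) or KO abemaciclib replicate 3 (-0.49, adjusted p = 0.0369). The 95% intervals of CCNB2, CDK2, CDC25B and CDC25C ran from -0.27 to 0.00, from -0.24 to 0.07, from -0.27 to 0.16 and from -0.44 to 0.14, so differences of those sizes between genotypes remain possible.

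KO cells were compared with control cells under each treatment. Whether the differences between these cells come from FAH itself was not tested. Under abemaciclib 6 of 10 members were lower in KO cells and 0 higher, where 11.3% of all tested genes were lower and 18.6% higher. Under vehicle 5 of 10 were lower and 0 higher, where 13.1% of tested genes were lower and 24.6% higher. The median difference over the members was -0.58 under abemaciclib, against 0.04 over all tested genes, and -0.21 under vehicle, against 0.06 over all tested genes. After rescaling by the median ratio, 52.2% of all genes that passed were lower under abemaciclib, in place of 37.8%, and 51.4% under vehicle, in place of 34.7%. After median-ratio or quantile scaling, 8 members were lower under abemaciclib and 6 under vehicle. Every KO library lay below every control library for 10.1% of all tested genes under abemaciclib and 12.7% under vehicle. The 2 treatments use separate KO and control libraries.

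Under abemaciclib, CCNE2 averaged 2.01 ± 0.34 CPM in KO cells and 5.83 ± 0.66 CPM in control cells (SD, n = 4 each), a log2 difference of -1.18 ± 0.09 (SE; limma adjusted p = 2.34e-12). CDK1 averaged 9.95 ± 0.41 CPM in KO cells and 22.6 ± 1.5 CPM in control cells, a log2 difference of -1.11 ± 0.05 (limma adjusted p = 3.39e-18). CCNA2 averaged 3.69 ± 0.75 CPM in KO cells and 7.57 ± 1.13 CPM in control cells, a log2 difference of -0.87 ± 0.09 (limma adjusted p = 1.53e-09). For these 3 genes no KO library reached any control library, and KO cells held 34.6%, 44.0% and 48.8% of the control mean, in that order. CCNB2 differed by -0.64 ± 0.05 (limma adjusted p = 8.35e-13) and CDC25C by -0.57 ± 0.10 (limma adjusted p = 5.03e-05), also without overlap. CDC25A differed by -0.58 ± 0.14 (limma adjusted p = 0.00140), but its KO library with 2.48 CPM overlapped the control libraries. The CDC25A difference was -0.24 with 5 CPM added and -0.89 with 0.1 CPM added, and those of CCNE2, CCNA2 and CDC25C were -0.63, -0.53 and -0.27 with 5 CPM added, all still past the threshold.

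The other 4 members did not pass under abemaciclib. CCNB1 averaged 44.2 ± 0.8 CPM in KO cells and 47.3 ± 3.8 CPM in control cells (limma adjusted p = 0.137). In control cells 3 libraries lay above all KO libraries and 1 lay below them. Without that library, control abemaciclib replicate 1, its difference was -0.15 (adjusted p = 0.00410), and with all libraries it also passed after median-ratio scaling (-0.13, adjusted p = 0.0433) and quantile scaling (-0.13, adjusted p = 0.0385). CDC25B had a difference of -0.19 ± 0.08 (limma adjusted p = 0.0537), which passed in 8 of 26 alternatives, among them without control abemaciclib replicate 3 (-0.22) or 4 (-0.23) or KO abemaciclib replicate 2 (-0.22). CCNE1 differed by -0.18 (95% interval -0.41 to 0.05, limma adjusted p = 0.241) and CDK2 by -0.07 (95% interval -0.18 to 0.04, limma adjusted p = 0.350).

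Under vehicle, the members that passed were the cyclins CCNA2, CCNB1 and CCNB2, the mitotic kinase CDK1 and the phosphatase CDC25C. CCNB2 averaged 112 ± 5 CPM in KO cells and 159 ± 3 CPM in control cells, 70.4% of the control mean, with a log2 difference of -0.50 ± 0.05 (limma adjusted p = 1.77e-10). CDC25C differed by -0.42 ± 0.10 (limma adjusted p = 0.00145), CDK1 by -0.39 ± 0.05 (limma adjusted p = 1.69e-07), CCNA2 by -0.39 ± 0.09 (limma adjusted p = 0.000747) and CCNB1 by -0.28 ± 0.05 (limma adjusted p = 9.82e-06). For each of these 5 genes all KO libraries lay below all control libraries, and KO cells held 73.9%, 76.1%, 76.2% and 82.4% of the control mean for the last 4 in that order. CDC25B differed by -0.14 (95% interval -0.29 to 0.01, limma adjusted p = 0.152), and passed at -0.20 and -0.21 after median-ratio and quantile scaling. CCNE2 differed by -0.11 (limma adjusted p = 0.359), CDC25A by -0.09 (limma adjusted p = 0.653), CDK2 by 0.02 (limma adjusted p = 0.848) and CCNE1 by 0.21 (limma adjusted p = 0.153). The difference of CDK2 was below 0 after either rescaling, at -0.05 and -0.03.

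**Figure D3:**
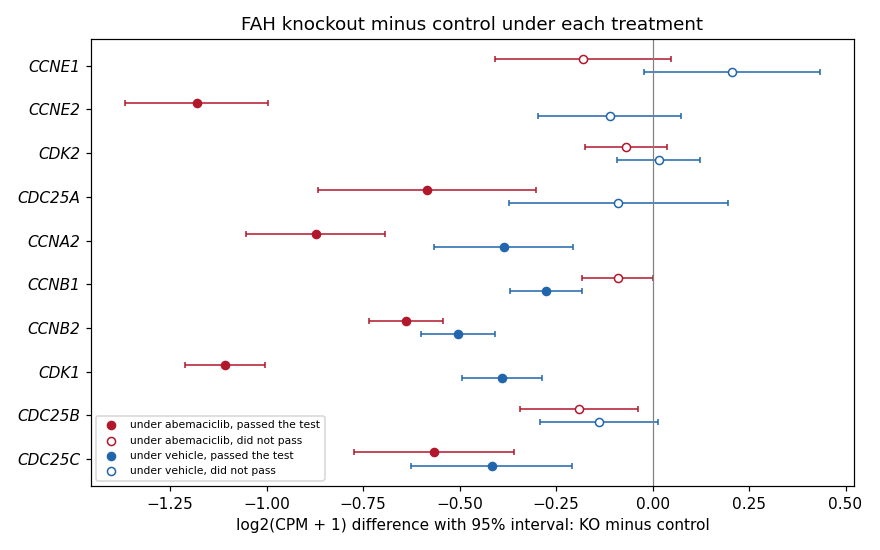
Difference between KO and control cells on the log2(CPM + 1) scale (horizontal axis) for each gene, under abemaciclib (red) and vehicle (blue); lines are 95% intervals of the fit and filled points passed the test. CCNE2 lies at -1.18 under abemaciclib and -0.11 under vehicle, while CCNB1 lies at -0.09 under abemaciclib and -0.28 under vehicle.

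Ordered by mean level, 8 members stood highest in control cells under vehicle, then in KO cells under vehicle, in control cells under abemaciclib and in KO cells under abemaciclib. CCNE1 and CDK2 differed from that order only in that KO cells under vehicle stood first. The middle step was tested by setting KO cells under vehicle against control cells under abemaciclib: 10 of 10 members were higher and 0 lower, where 37.8% of all tested genes were higher and 11.8% lower, and log2 differences ran from 0.52 for CCNE1 to 2.73 for CCNA2. For CCNE1 and CDK2 the middle step is abemaciclib against vehicle in control cells, given above. This comparison moved the median of all tested genes by 0.12, and rescaling by the median ratio left 50.7% of the genes that passed lower, in place of 23.8%. Neighbours that did not pass were the vehicle groups for CCNE1, CCNE2, CDK2, CDC25A and CDC25B, and the abemaciclib groups for CCNE1, CDK2, CCNB1 and CDC25B.

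Ratios of related members within a library do not depend on the scaling of that library, apart from the added 1 CPM. For 5 ratios and 4 comparisons, 20 exact two-sided permutation tests were run, for which the smallest possible p is 0.0286. The level of a ratio also reflects gene length, so differences alone are described. The CDK1/CDK2 ratio was lower under abemaciclib than under vehicle with log2 differences of -2.48 in KO cells and -1.85 in control cells, and lower in KO than in control cells with differences of -1.04 under abemaciclib and -0.41 under vehicle. The CCNE2/CCNE1 ratio was lower under the drug with differences of -2.33 in KO cells and -1.65 in control cells, and lower in KO than in control cells with differences of -1.0 under abemaciclib and -0.32 under vehicle. Each of these 8 differences had the smallest possible exact permutation p, 0.0286, and 0.0408 after adjustment over the 20 tests.

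The CCNB2/CCNB1 ratio gave a different picture. It differed between drug and vehicle by -0.35 in KO cells (exact permutation p = 0.0286, adjusted 0.0408) but by -0.03 in control cells (exact permutation p = 0.714). In KO cells it was lower than in control cells, with differences of -0.55 under abemaciclib and -0.23 under vehicle, each with exact permutation p = 0.0286 (adjusted 0.0408). The CDC25C/CDC25B ratio was lower under the drug with differences of -1.05 in KO cells and -0.95 in control cells, each with exact permutation p = 0.0286 (adjusted 0.0408). Between KO and control cells it differed by -0.38 under abemaciclib (exact permutation p = 0.0857, adjusted 0.114) and by -0.28 under vehicle (exact permutation p = 0.0286, adjusted 0.0408). No CDC25A/CDC25B difference passed, the smallest adjusted exact permutation p being 0.134.

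**Figure D4:**
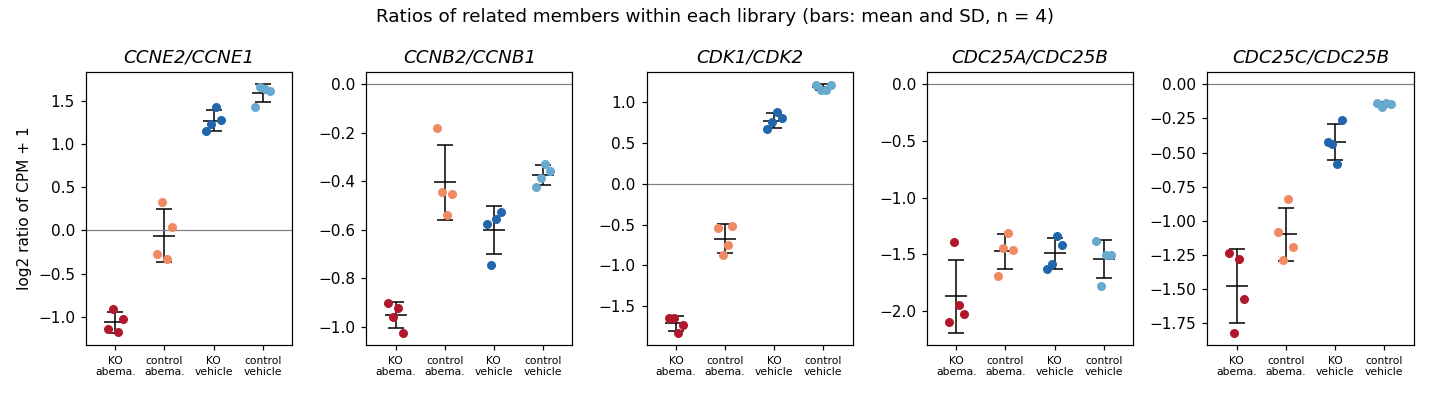
Log2 ratio of CPM + 1 between related genes (vertical axis) in the 4 libraries of each group; points are libraries and bars give the mean and SD (n = 4). The CDK1/CDK2 ratio averages -1.71 in KO and -0.67 in control cells under abemaciclib, and 0.77 in KO and 1.18 in control cells under vehicle.

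The neighbourhood of the engine was followed in 30 partner and regulator genes, of which 29 were tested and CCNA1 fell below the level filter. Under abemaciclib 23 of the 29 were lower and 1 higher than under vehicle in KO cells (median difference -0.94), and 24 were lower and 1 higher in control cells (median difference -0.87). Of all tested genes 27.4% were lower and 11% higher in KO cells, and 31.1% lower and 19.6% higher in control cells. UBE2C, the ubiquitin-conjugating enzyme of the anaphase-promoting complex, fell, with log2 differences of -3.13 in KO cells and -2.69 in control cells. PLK1, the mitotic kinase that activates CDC25C, fell with differences of -3.13 in KO cells and -2.85 in control cells, and FBXO5, an inhibitor of the anaphase-promoting complex, with differences of -2.49 in KO cells and -2.46 in control cells. PKMYT1 had a difference of -2.47 in KO cells, and CDC20, an activator of the anaphase-promoting complex, one of -2.07 in control cells. CDK7, the kinase that activates CDKs, was the gene that rose, by 0.26 in KO cells and 0.21 in control cells. After median-ratio scaling, 2 partner genes were higher in each genotype.

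**Figure D5:**
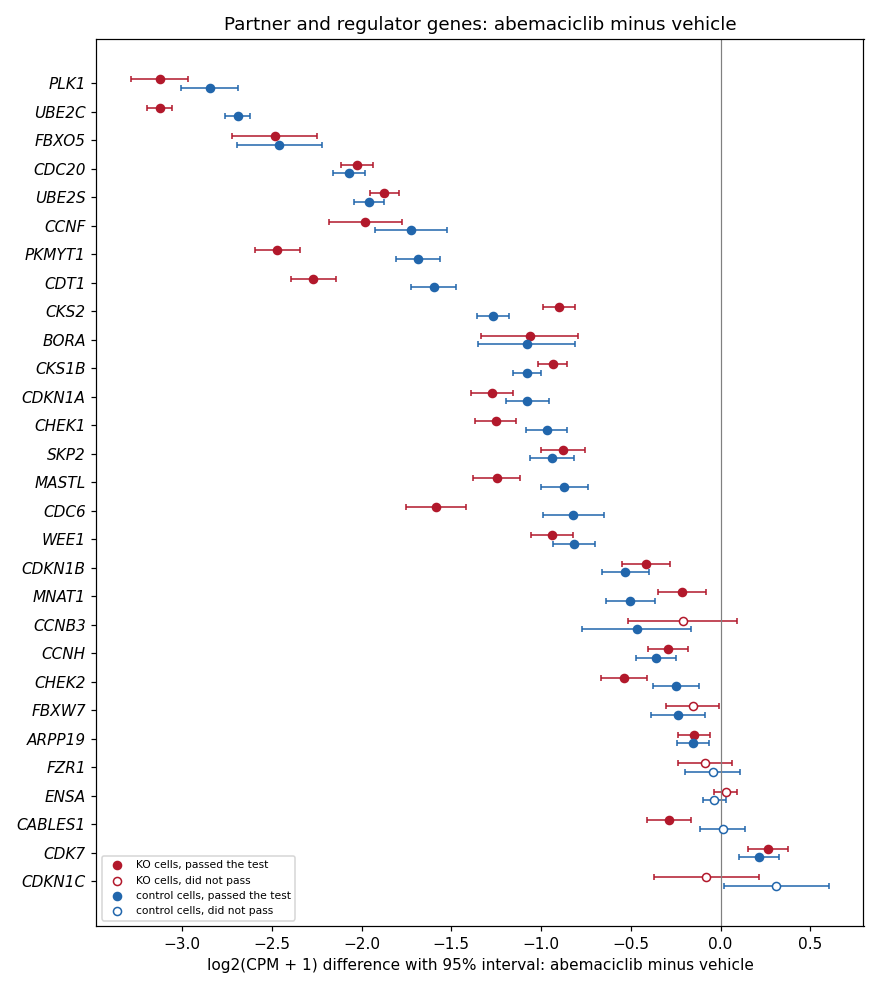
Difference between abemaciclib and vehicle on the log2(CPM + 1) scale (horizontal axis) for 29 partner and regulator genes, in KO cells (red) and control cells (blue), ordered by the value in control cells; lines are 95% intervals of the fit and filled points passed the test. PLK1 and UBE2C stand lowest and CDK7 is the gene that passed above 0.

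Setting KO against control cells, 15 partner genes were lower and 1 higher under abemaciclib (median -0.20), and 11 were lower and 4 higher under vehicle (median -0.13). Of all tested genes 11.3% were lower and 18.6% higher under abemaciclib, and 13.1% lower and 24.6% higher under vehicle, so the 4 of 29 higher under vehicle stand below the background share. Under abemaciclib the largest decreases were in CDT1, which loads the replicative helicase (-1.06), the CDK-inhibiting kinase PKMYT1 (-0.92), the licensing factor CDC6 (-0.80) and UBE2C (-0.77), and ENSA, which restrains the phosphatase that opposes CDK1, was the gene that rose (0.20). Under vehicle the CDK-binding subunits CKS1B (-0.51) and CKS2 (-0.42), with CDT1 (-0.38) and UBE2C (-0.33), fell most. The CDK inhibitors CDKN1C (0.68) and CDKN1A (0.18), the CDK-binding protein CABLES1 (0.29) and ENSA (0.13) rose under vehicle. CDKN1C was at 1.50 to 2.89 CPM in KO cells and 0.754 to 1.31 CPM in control cells. After median-ratio scaling, 2 partner genes were higher in KO cells under vehicle, in place of 4.

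In the interaction, 8 partner genes were more strongly lowered by the drug in KO cells and 2 less strongly, where 6.16% and 4.68% of all tested genes passed. PKMYT1 (-0.79), CDC6 (-0.77), CDT1 (-0.67) and UBE2C (-0.44) had the largest negative values, with limma adjusted p from 2.19e-05 for CDC6 to 7.29e-08 for PKMYT1. CKS2 (0.37, limma adjusted p = 7.63e-05) and MNAT1 (0.29, limma adjusted p = 0.0439), the assembly factor of the CDK-activating kinase, had positive values. MNAT1 lay near the threshold, and the count of 2 did not hold in many of the alternatives given at the end. These 2 positive calls among the tested partner genes stand near the share of 4.68%. PKMYT1, for example, averaged 6.82 ± 0.36 CPM in KO and 13.8 ± 0.4 CPM in control cells under abemaciclib, and 42.3 ± 0.9 CPM in KO and 46.5 ± 3.2 CPM in control cells under vehicle (SD, n = 4 each).

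As a description over the 16 libraries, which share the same 4 groups, the non-member genes most like CDK1 in log2(CPM + 1) were BIRC5 (Pearson r = 0.999), CDCA5, CEP55, PCLAF and TOP2A. Those most like CCNE2 were MCM10 (r = 0.995), PKMYT1, MYBL2, TK1 and CDCA5. Those most like CDK2 were KNSTRN (r = 0.989), H2AX, PLK1, SMCO4 and SAC3D1. Among the members, r was 0.995 for CDK1 with CCNA2 and with CCNB2, and 0.757 for CCNE1 with CDC25A, the lowest of any pair.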

How the data were processed

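The authors deposited counts per 1000000 assigned reads (CPM) for 16 libraries in 1 table, with each column summing to 1000000. Per the labels' protocols, a commercial service extracted RNA and made tagmented cDNA libraries. Per the submitters' processing notes, reads were handled with STAR 2.7.11, SAMtools 1.22.1, featureCounts of Subread 2.1.1 and MultiQC 1.32 on GRCh38. The sources used here do not give the annotation release, the strand setting or whether molecules were tagged, so reads of overlapping antisense genes cannot be told apart.

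The 92 spike-in features were left out. A gene entered the fit with 1 CPM or more in 4 or more libraries. Its log2(CPM + 1) was modelled with limma 3.58.1 (R 4.3.3), in 1 fit of 4 group means with a variance trend; tests were two-sided, and p-values were adjusted by Benjamini-Hochberg across the 16218 genes. Ratios and FAH were also given exact permutation tests (SciPy 1.17.1). The most frequent nonzero value of a library was taken as the CPM worth of 1 read. Of nonzero values, 70.2 to 71.8% were then whole within 0.02 reads, too few for a count test. The fit was also run on simulated counts in which a small set of genes changed in 1 group. Far more genes changed in these data, so nothing is concluded from that run. All members were named; of the partner genes, up to 4 that passed with the largest changes per direction and comparison; and for CDK1, CCNE2 and CDK2 the 5 genes with the highest correlation. The members and lists were chosen with earlier results of these data known. No pair of libraries within a group was as close as 1 library sequenced again would be (chi-square per degree of freedom 1.06 to 1.94). Control abemaciclib replicate 1 stood furthest from its group, at 1.651, 1.755 and 1.941 against replicates 2, 3 and 4. Those replicates gave 1.168 to 1.303 among themselves. The library that stood apart held the 7.57 CPM of CCNE1 and the 41.7 CPM of CCNB1 under the drug. Why it stood apart was not tested. Values near 1 are close to read sampling alone, and the check cannot tell separate cultures from repeated libraries of the same RNA.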

Additional observations from a re-analysis of the deposited data

Results flagged for a closer look

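In 4 of 44 sets of 4 libraries (the 10 members and FAH in 4 groups), 1 library stood apart from the other 3 by Dixon's criterion, which chance meets in about 1 in 20 sets. CCNE1 reached 6.79 CPM in KO abemaciclib replicate 3, against 4.69 to 4.90 CPM in the other KO libraries under the drug. CDK2 reached 36.8 CPM in the same library, against 34.0 to 34.4 CPM in the others. CDC25A reached 2.48 CPM in KO abemaciclib replicate 2, against 1.01 to 1.18 CPM in the others. CCNE2 was lowest in control abemaciclib replicate 3, at 4.84 CPM, against 6.07 to 6.22 CPM in the others.

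The drug effect differed between KO and control cells, by the interaction term of the limma fit, for CCNE2 (-1.07), CDK1 (-0.72) and CCNA2 (-0.49), each lowered more in KO cells.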

How the results depend on the processing

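Counts of members and partner genes that passed stayed within 1.5 times their value in 590 of 620 recomputations, under other pseudocounts, filters, scalings and fits, and with each library left out, and all 155 counts of members that passed as lower did. Partner genes higher in KO than in control cells under vehicle were 2, in place of 4, with median-ratio scaling. Under abemaciclib they were 2, in place of 1, with a filter of 5 CPM and without control abemaciclib replicate 1 or 2 or KO abemaciclib replicate 2 (1 to 2 over the libraries). Partner genes higher under the drug were 2, in place of 1, in control cells with 0.1 CPM added, median-ratio or quantile scaling and without control vehicle replicate 1 (1 to 2), and in KO cells with either scaling. In the interaction 1 partner gene was higher, in place of 2, without a filter, without the variance trend, and without any 1 of the 4 control vehicle libraries, control abemaciclib replicate 2 or 3, KO vehicle replicate 3 or 4, or KO abemaciclib replicate 1, 2 or 3 (1 to 2); 5 partner genes were lower, in place of 8, without a filter; and 1 member, CCNB1, was higher, in place of 0, with 5 CPM added, with a filter of 5 CPM, and with 1 library left out (0 to 1). Adding 5 CPM also shrank by over 1.5 times the drug differences of CDC25A (-0.95 in KO cells, -0.77 in control cells), CCNE1 (-0.47 in KO cells, -0.21 in control cells) and CDC25C (-1.59 in KO cells), all still past the threshold; leaving out a library moved no called member value that far. Signs turned, with no call, for CDK2 between KO and control cells under vehicle (-0.0477 with median-ratio scaling, -0.0323 with quantile scaling, and -0.0156 to 0.0438 with 1 library left out), for the interaction of CDC25B (0.0148 with quantile scaling) and CDC25C (0.0735 with 5 CPM added), and for the CDC25A/CDC25B ratio between drug and vehicle in control cells (-0.116 with 0.1 CPM added). The cause was not tested. Same-numbered libraries did not deviate together (24 pairs, r from -0.04 to 0.06, against -0.06 to 0.07 for other pairs). No pairing by number was seen, but read sampling in genes with few reads could hide a weak one. With a replicate block, 10 members were lower under the drug in each genotype, 6 in KO against control cells under abemaciclib, 5 under vehicle and 3 in the interaction, as without it. For the ratios the block leaves 4 pairs, too few for an exact p under 0.05, so the differences were the same as without it but no call was possible. Voom on reads worked out from the CPM was added after the data had been seen and changed no member's call; it put the CDC25A difference between KO and control cells under abemaciclib at -0.92. Depth limits CDC25A, CCNE2 and CDC25C most, with 11, 18 and 18 reads in their lowest libraries.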
